A study of Rattus norvegicus with 16 samples.

Results

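Histone genes were examined in the heart of rats given phenformin, a biguanide drug that acts on mitochondrial complex I. The set held every gene whose symbol in the array annotation starts with Hist, or with H1, H2, H3 or H4 directly followed by a letter and naming a histone. It had 47 members among the 22093 genes with a probe set of a single symbol. The symbols decided which genes were members, but the set was chosen with earlier results of these data known. Where a gene had several probe sets, the one with the highest mean over the 16 arrays stood for it. The RNA was that of the apex of the left ventricle, taken from male Wistar rats of the strain RccHan:WIST that were 7 to 8 weeks old at the start. The 4 groups were untreated food for 3 days, 3000 ppm phenformin in the food for 3 days, and the same pair for 14 days, with 4 arrays each. Each array is labelled as a biological replicate, and the protocol names 5 animals per group. The tissue is a piece of ventricle that holds cardiomyocytes, fibroblasts, vascular cells and blood, so fewer cells of a type and less RNA per cell cannot be told apart in any result below.

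Histones package DNA: H2A, H2B, H3 and H4 form the nucleosome core, and H1 binds the linker DNA between cores. Replication-dependent histone genes lie in clusters, lack introns, and are transcribed in S phase, when new DNA needs new nucleosomes; their mRNAs end in a stem-loop bound by Slbp instead of a poly(A) tail. Replacement variants such as H3f3b, H2az1 and H2ax are also made outside S phase and are found in cells that no longer divide. Adult cardiomyocytes rarely divide, while other cells of the young heart do. The array was labelled with a whole-transcript kit, which primes along the RNA and not from a poly(A) tail alone. Copies of one core histone family can be close in coding sequence, so a probe set named for one gene may also bind RNA of its relatives. How close the H1 genes are to each other was not examined here.

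The 47 members comprised 25 replication-dependent genes (3 of H1, 9 of H2A, 6 of H2B, 4 of H3 and 3 of H4), 7 variants, 8 genes known from germ cells and 7 copies of variant genes. Of the members, 24 had a 16-array mean at or above the median gene, which stood at 6.02 on the log2 scale, and 10 were under the 25th percentile, where a log2 signal may be mostly background. Array medians lay between 4.94 and 5.13, and correlations across genes between arrays between 0.989 and 0.995. Cardiomyocyte markers had a list mean between 17.49 and 17.58, near the top of the scale. The 2 arrays farthest from the centre of the first 2 principal components were day 3 control replicates 2 and 3, and the main day 3 counts are given with and without them.

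Promoter windows from RefSeq (build GRCr8, 250 bases before and 50 after the annotated start) were found for 43 members, 23 of them on chromosome 17. The CCAAT motif, on either strand, was present in 22 of 24 windows of replication-dependent genes (91.7%), against 37.5% of all 33469 windows. The TATAAA motif was in 66.7% of them, against 14.2% of all windows, and the octamer ATTTGCAT in 29.2%, against 1.78%. The other classes held CCAAT in 78.9% of 19 windows. The 100 bases before the annotated start are shown for 4 genes that fell at day 3 and for the variant H3f3b, which had the narrowest day 3 interval of the variants, to set replication-dependent and replacement promoters side by side. They read 5′ to 3′ on the gene's strand, and capitals mark the motifs just named, on either strand.
Hist2h3c2, chr2:186526062-186526161, plus strand: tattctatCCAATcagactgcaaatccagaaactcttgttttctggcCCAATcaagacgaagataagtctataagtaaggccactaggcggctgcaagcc
Hist1h2ah, chr17:41812278-41812377, plus strand: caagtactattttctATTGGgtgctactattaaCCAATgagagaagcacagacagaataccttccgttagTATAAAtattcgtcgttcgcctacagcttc
H2ac4, chr17:47496128-47496227, minus strand: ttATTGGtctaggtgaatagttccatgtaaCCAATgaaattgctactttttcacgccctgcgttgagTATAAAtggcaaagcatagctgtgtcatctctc
H1f5, chr17:47421775-47421874, plus strand: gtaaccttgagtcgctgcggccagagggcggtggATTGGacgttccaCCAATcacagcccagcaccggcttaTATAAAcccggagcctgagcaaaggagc
H3f3b, chr10:101757637-101757736, minus strand: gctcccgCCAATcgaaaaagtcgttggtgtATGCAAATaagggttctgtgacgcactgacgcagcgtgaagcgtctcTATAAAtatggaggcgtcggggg
All 5 stretches held CCAAT and 4 held TATAAA. Those of Hist1h2ail1 and Hist1h2af, which also fell, are not shown, and with them the picture is less uniform. In Hist1h2ail1 every CCAAT lay more than 100 bases before the annotated start, and its window held no TATAAA. In Hist1h2af a CCAAT lay within 100 bases of the start, but its only TATAAA lay farther away. Among replication-dependent windows, TATAAA was in 66.7% of those of the 6 genes that fell and in 66.7% of the 18 others. CCAAT was in 100% and 88.9%, and the octamer in 33.3% and 27.8%. A further motif that was counted, TTTGAA, was in 66.7% and 38.9%, against 18.3% of all windows. With 6 windows on one side, these differences were not tested. A motif was counted anywhere in the window. The RefSeq models of Hist1h2af, Hist1h2bd and Hist1h2bo start with ATG, so their windows may be set from the coding start. In Hist1h2af, which fell, the only TATAAA lay at -232. This limits the comparison.

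The gene listed as Hist1h2ail1 carries an H2A-like symbol, but RefSeq gives it the synonym H3 histone, and its coding start was compared to place it. The 30 bases from the first ATG after the annotated start follow, with capitals in the first line where a base equals that of Hist2h3c2 and in the other lines where it equals that of Hist1h2ail1.
Hist1h2ail1, chr17:41997082-41997111, minus strand: ATGGCCCGTACtAAGCAGACCGCtCGCAAG
Hist2h3c2, chr2:186526177-186526206, plus strand: ATGGCCCGTACaAAGCAGACCGCcCGCAAG
Hist1h2af, chr17:41807624-41807653, minus strand: ATGtCtgGacgcggcaAGcagGgcgGCAAG
Of 30 bases, 28 were identical to Hist2h3c2, an H3 gene, and 13 to Hist1h2af, an H2A gene. Hist1h2ail1 was therefore counted with family H3 here. This places the RefSeq gene and says nothing of which RNAs its probe set binds.

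At day 3 of phenformin, 6 histone genes fell and none rose past a limma test with Benjamini-Hochberg adjustment over all genes (adjusted p under 0.05). All 6 were replication-dependent: Hist2h3c2 and Hist1h2ail1 of H3, H2ac4, Hist1h2ah and Hist1h2af of H2A, and the linker histone H1f5. Their falls ran from 3.91-fold for Hist2h3c2 to 1.74-fold for H1f5. Of all genes, 0.566% were called, 0.462% lower (102 genes) and 0.104% higher. The fall of Hist2h3c2 was already known when the set was chosen, so it is no independent support for the others.

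Hist2h3c2, a core H3 gene, had day 3 log2 values of 10.31, 10.82, 9.97 and 10.31 in controls and of 8.53, 8.43, 8.24 and 8.35 with phenformin. Every treated array lay more than 1 log2 unit below every control. Its log2 change was -1.97 (SE 0.354, n = 4 per group; limma adjusted p = 0.0161). Hist1h2ail1 stood at 6.13, 6.18, 5.56 and 5.51 in controls and at 4.15, 4.46, 4.30 and 4.48 with phenformin. The groups did not overlap, and the change was -1.50 (SE 0.225; limma adjusted p = 0.00859), the smallest adjusted p among the 47 members.

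The 3 H2A genes showed the same separation. H2ac4 had log2 values of 7.77, 8.30, 7.32 and 7.80 in day 3 controls and of 6.36, 6.28, 6.35 and 6.51 with phenformin. The treated arrays were close together and the control arrays spread over almost 1 log2 unit, and the change was -1.42 (SE 0.243; limma adjusted p = 0.014). Hist1h2ah stood at 8.03, 8.42, 7.76 and 7.96 against 6.74, 6.76, 6.75 and 6.36. Phenformin replicate 4 was the lowest of its group, and the change was -1.39 (SE 0.220; limma adjusted p = 0.0119). Hist1h2af stood at 9.77, 9.88, 9.60 and 9.64 against 8.51, 8.33, 8.60 and 8.41. Both of its groups were tight, with an SD of 0.125 in controls and 0.118 with phenformin, and the change was -1.26 (SE 0.212; limma adjusted p = 0.014).

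H1f5, which binds linker DNA, had log2 values of 6.21, 6.06, 6.03 and 6.13 in day 3 controls and of 5.16, 5.53, 5.22 and 5.31 with phenformin. Its groups did not overlap either, and its change of -0.80 (SE 0.165; limma adjusted p = 0.0353) was the smallest of the 6. Control replicate 2 was the highest control array for Hist2h3c2, Hist1h2ail1, H2ac4, Hist1h2ah and Hist1h2af. The call of H1f5 was lost in 8 of the 16 fits that left out 1 array (limma adjusted p up to 0.125) and that of Hist2h3c2 in 4 (up to 0.0658). Without control replicate 2, 1 of the 6 calls was left, that of Hist1h2ail1, while calls over all genes went from 125 to 22; without day 3 phenformin replicate 4, 3 were left. Without both control arrays that stood apart, no member passed, 16 members had an unadjusted p under 0.05, and 3 genes passed in all. The changes of the 6 genes then ran from -1.92 for Hist2h3c2 to -0.86 for H1f5, with limma adjusted p between 0.106 and 0.265.

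**Figure D1:**
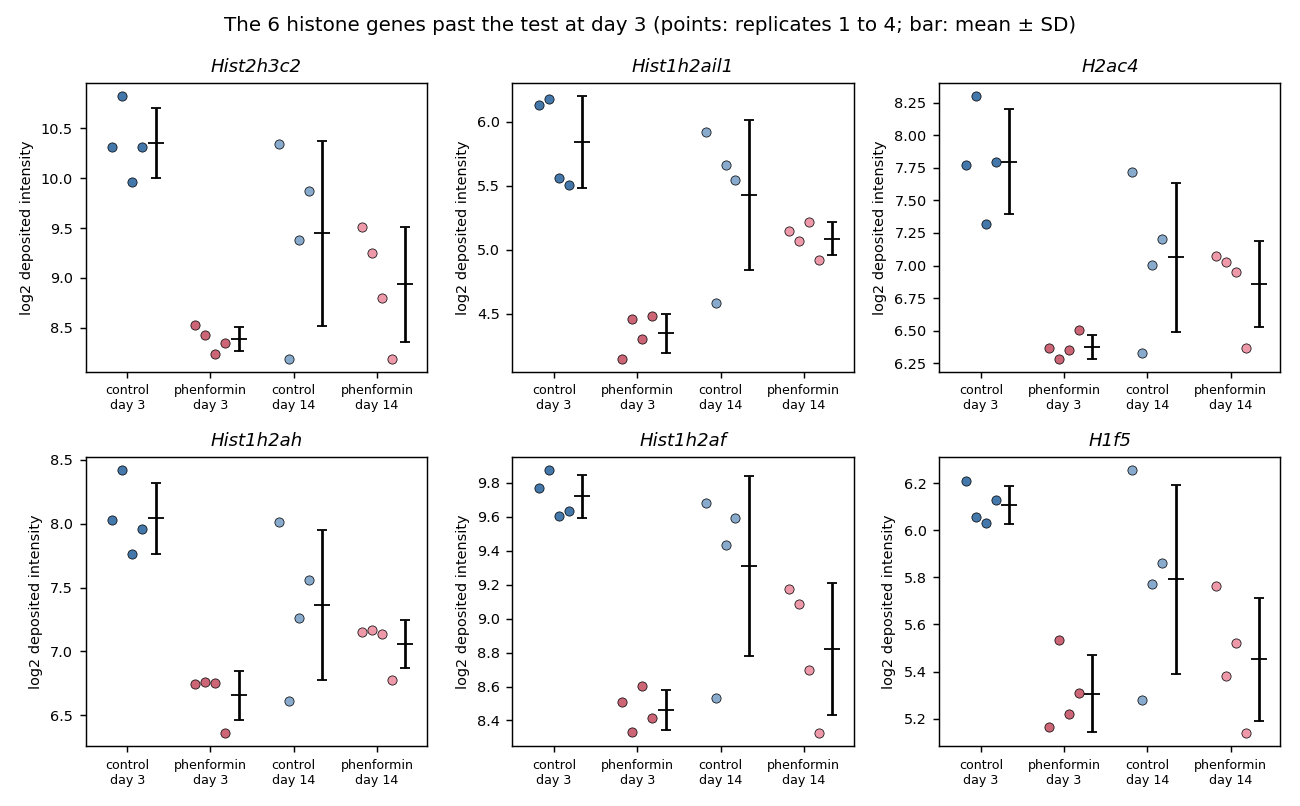
Log2 deposited intensity (vertical axis) of the 6 histone genes past the test at day 3, in the 4 groups (horizontal axis); points are replicates 1 to 4 from left to right and bars are the mean ± SD. In each panel the 4 day 3 phenformin arrays lie below all 4 day 3 controls, while the day 14 groups overlap.

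Across the replication-dependent class, all 25 genes had a day 3 log2 change below 0, against 49.9% of all genes, and their median was -0.57, against 0.00 for all genes. Hist3h2ba and H2bu1, H2B genes on chromosome 10, were placed with the variants, at 0.18 and 0.15. Both are under the 25th percentile, and with them in the class not every change would be below 0. At an unadjusted p under 0.05, 15 of the 25 were lower and none higher, where 5.78% of all genes were lower and 3.59% higher. In 13 of the 25, all 4 treated arrays lay below all 4 controls, which held for 3.87% of all genes. Without day 3 control replicate 2 the count was 24 and the median -0.45. Without both arrays that stood apart the count was 24, with H1f4 at 0.01, and the median -0.42. The median was -0.57 both in the 13 genes with a mean at or above the median gene and in the 12 below it. Because relatives may bind to the same probe sets, these 25 values are not independent of each other.

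The families differed in median. It was -1.01 for the 4 H3 genes, -0.74 for the 9 of H2A, -0.64 for the 3 of H4, -0.23 for the 6 of H2B and -0.22 for the 3 of H1, and these differences between families were not tested. In H3, Hist2h3c2 changed by -1.97, Hist1h2ail1 by -1.50, H3c13 by -0.51 and Hist1h3b by -0.33, so no gene lay near the median. The H3 median also rests on the placement of Hist1h2ail1. Without that gene the middle H3 value was that of H3c13, a smaller fall than the H2A and H4 medians. For H2B the largest value was that of H2bc12, at 4.13, 4.32, 4.39 and 4.47 in day 3 controls and 3.63, 3.82, 2.99 and 3.82 with phenformin. The groups did not overlap, but its 16-array mean is under the 25th percentile, and the change of -0.76 had a limma adjusted p of 0.0818. Hist1h2bq, the brightest H2B probe set, stood at 13.84, 13.98, 14.29 and 14.03 against 14.09, 13.82, 13.53 and 13.76. Its groups overlapped, with a change of -0.24 and a limma adjusted p of 0.582. Hist1h2bo changed by -0.16 (95% interval -0.38 to 0.07).

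The H4 genes, whose protein pairs with H3 in the nucleosome core, did not pass the test. Hist1h4m had log2 values of 14.54, 14.65, 14.36 and 14.49 in day 3 controls and 13.97, 13.82, 13.83 and 13.84 with phenformin. All treated arrays were lower, and the change was -0.64 (SE 0.160; limma adjusted p = 0.0941). H4c14 stood at 8.35, 8.17, 8.24 and 7.94 against 7.33, 7.59, 7.59 and 7.41. These groups did not overlap either (change -0.69, limma adjusted p = 0.108). Both passed when the fit held only the 8 day 3 arrays. Hist1h4m also passed with array weights and without day 14 control replicate 1 or 2, and H4c14 without day 14 phenformin replicate 1. The fit on the 8 arrays and that with array weights called 9 members each. Hist1h4b changed by -0.49, with overlapping groups and a limma adjusted p of 0.349. The probe set that stood for it has no gene ID and an identifier of chromosome 4, while RefSeq places the gene on chromosome 17. Its probe set with a gene ID, of chromosome 17 by its identifier, changed by -0.15.

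The other linker histones, H1f4 and H1f1, did not pass the test. H1f4 had the brightest probe set of the family and changed by -0.13 (95% interval -0.76 to 0.49), with a spread between replicates too wide to tell. H1f1 changed by -0.22 (95% interval -0.48 to 0.03). The difference between H1f5 and these genes was not tested. In H2A, Hist1h2an stood at 4.55, 5.25, 4.60 and 4.77 in controls and 3.75, 4.36, 4.25 and 3.75 with phenformin. Its groups did not overlap, and its change of -0.77 had a limma adjusted p of 0.173.

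The nearest measured members on the chromosome are given beside the genes that fell; differences between neighbours were not tested. In RefSeq order, Hist1h2af and Hist1h2ah have 1 annotated gene between them, and both fell. On their other sides lie H1f1, at -0.22 with 5 annotated genes between, and H1f6, at -0.15 with 3 between. Neither H1f1 nor H1f6 passed the test. Hist1h3b lies next to H1f5, with a change of -0.33, and Hist1h2bd lies next to H2ac4, with a change of -0.23. Hist1h2bd is also the nearest on the other side of H1f5, with 4 annotated genes between. H4c14, at -0.69, is the neighbour of Hist2h3c2. Hist1h2ail1 has Hist1h2an, at -0.77, on one side with 5 annotated genes between, and Hist1h2bg, at -0.29, on the other with 1 between. No source used here gives the build of the array annotation, and RefSeq served only for this order.

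**Figure D2:**
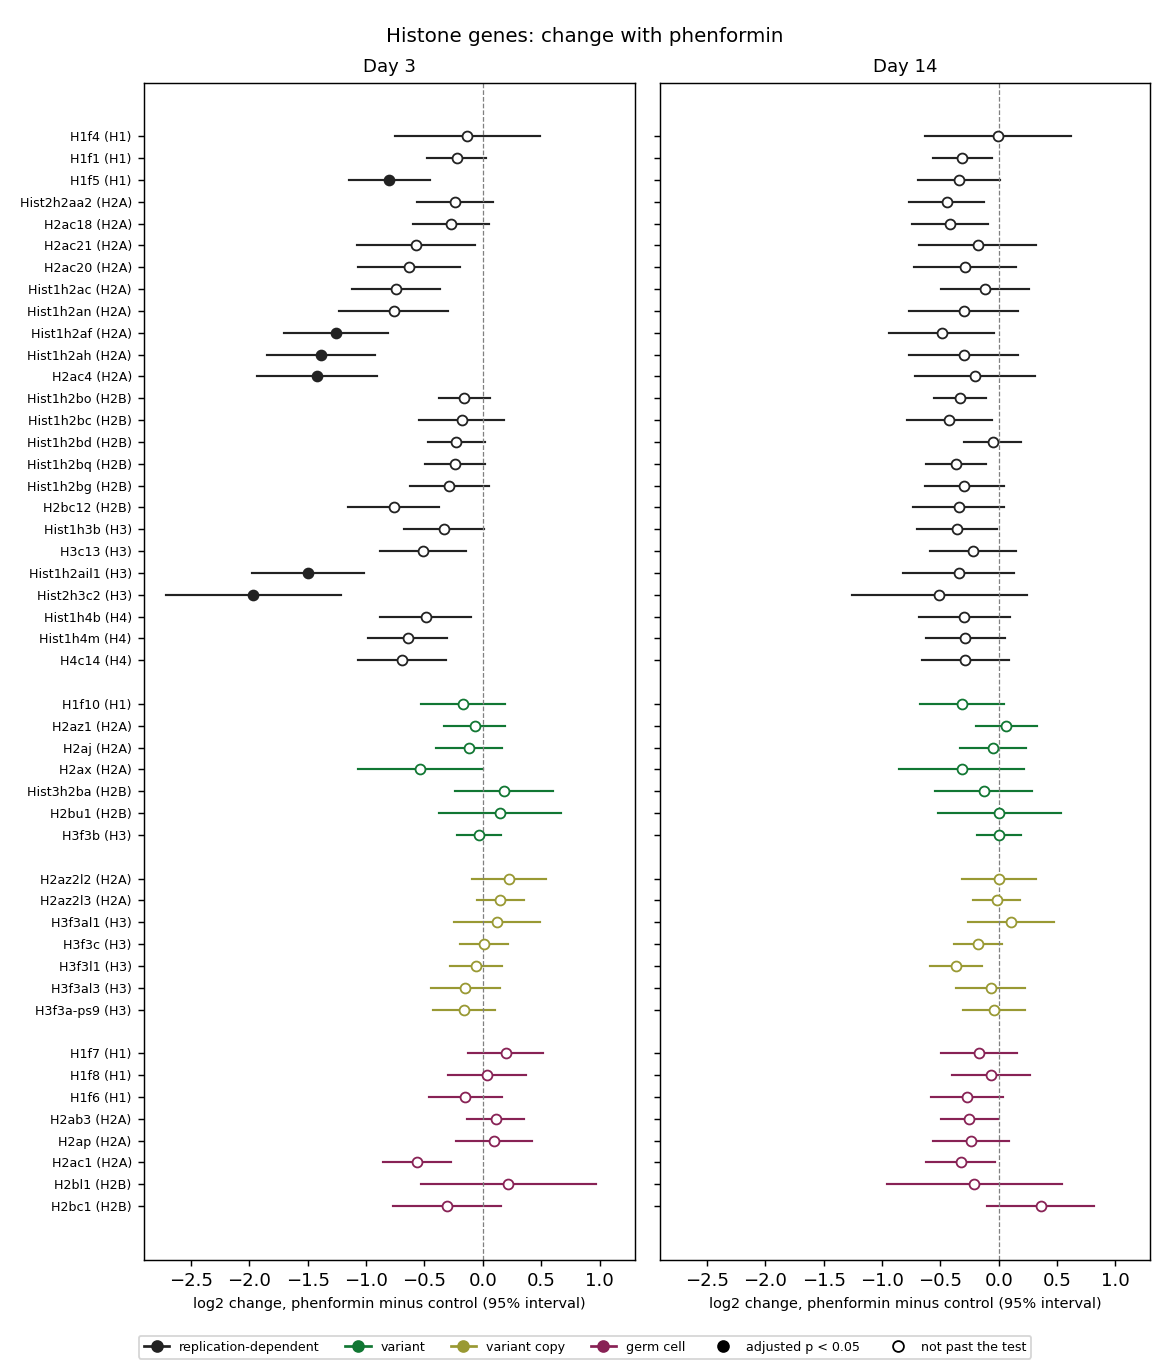
Log2 change, phenformin minus control (horizontal axis), of the 47 histone genes at day 3 (left) and day 14 (right), grouped by class and family; bars are 95% intervals from limma and filled points have an adjusted p under 0.05. The 25 replication-dependent genes lie left of 0 at both days, with 6 filled points at day 3 and none at day 14.

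None of the 7 variant histone genes passed the test at day 3 and none had an unadjusted p under 0.05. Their median change was -0.07, with values from -0.54 to 0.18. H3f3b, which encodes the replacement H3 histone deposited outside S phase, stood at 7.73, 7.70, 7.79 and 7.68 in day 3 controls and 7.69, 7.84, 7.54 and 7.71 with phenformin. The groups overlapped, and its change of -0.03 had a 95% interval of -0.22 to 0.16, which leaves out changes as large as that of H1f5. H2az1, the H2A.Z variant found at promoters, stood at 8.65, 8.95, 8.49 and 8.71 against 8.63, 8.61, 8.63 and 8.67. Its 95% interval was -0.33 to 0.19.

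H2ax, the variant phosphorylated at DNA breaks, had the lowest value of the class. It stood at 9.32, 10.29, 9.54 and 9.91 in day 3 controls and 8.84, 9.02, 9.80 and 9.26 with phenformin. Phenformin replicate 3 lay among the controls, and the change of -0.54 (SE 0.253) had a limma adjusted p of 0.533. H2aj changed by -0.12 and the linker variant H1f10 by -0.17. Macroh2a1 and Macroh2a2 carry an H2A-like domain but fall outside the symbol rule; they changed by -0.01 and -0.18, with limma adjusted p of 0.981 and 0.669.

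The 8 germ cell genes had a median day 3 change of 0.07 and no call. One of them, H2ac1, a testis H2A gene, was lower at an unadjusted p of 0.000902 (change -0.56, limma adjusted p = 0.0923), with phenformin replicate 1 among the controls; it is named here after its value was seen. H2bc1, the testis H2B gene, changed by -0.31 (limma adjusted p = 0.752). The 7 copies of variant genes had a median of 0.01 and no call. The brightest of them, H3f3a-ps9, changed by -0.16, H3f3c by 0.01 and H2az2l2 by 0.22, with limma adjusted p between 0.723 and 0.990.

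**Figure D3:**
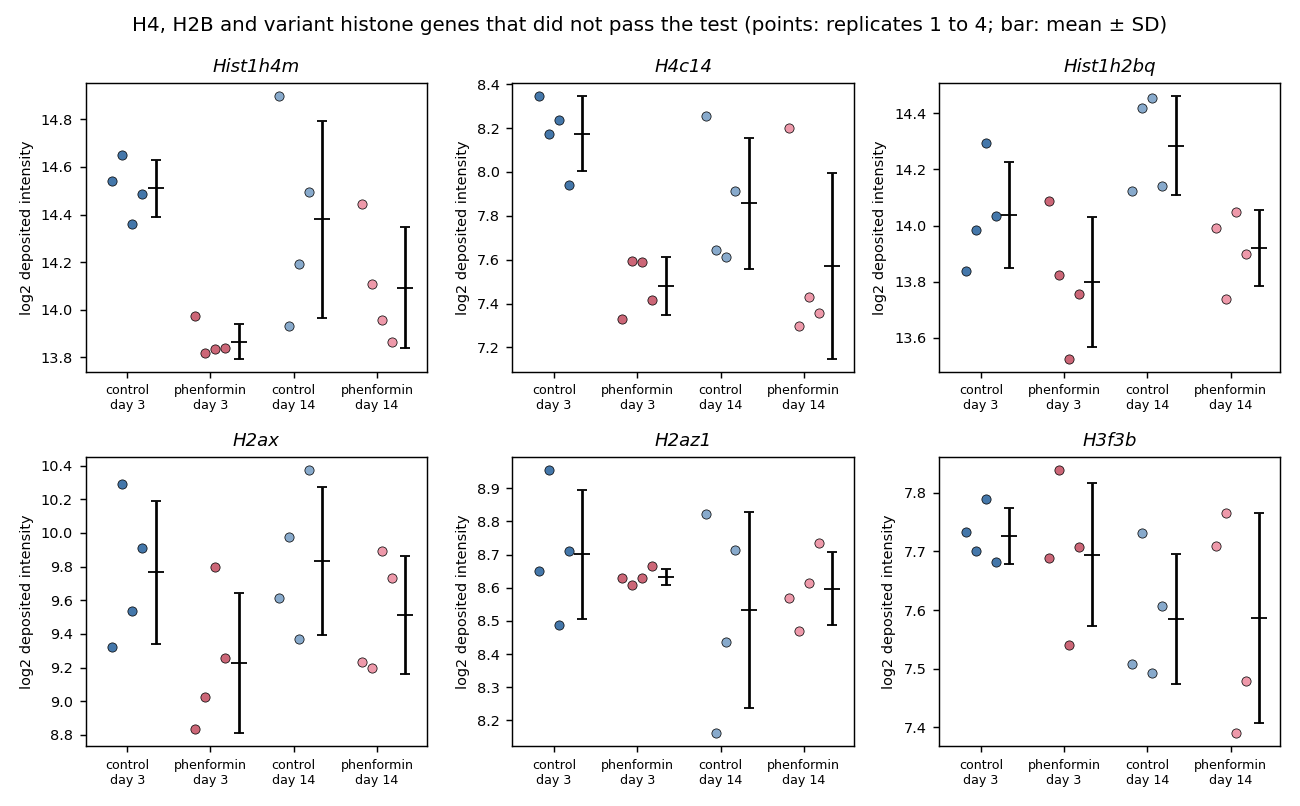
Log2 deposited intensity (vertical axis) of 6 histone genes that did not pass the test, in the 4 groups (horizontal axis); points are replicates 1 to 4 from left to right and bars are the mean ± SD. Hist1h4m and H4c14 have all 4 day 3 phenformin arrays below the controls, while the day 3 groups of Hist1h2bq, H2ax, H2az1 and H3f3b overlap.

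After 14 days no histone gene passed the test, where 0.0724% of all genes did (16 genes). At an unadjusted p under 0.05, 11 members were lower and none higher, where 6.96% of all genes were lower and 3.87% higher. All 25 replication-dependent genes had a change below 0, against 57.8% of all genes, with a median of -0.30 against -0.03. Without day 14 control replicate 1 the count was 21 and the median -0.21. With all arrays, Hist3h2ba and H2bu1, placed with the variants, changed by -0.13 and 0.005 at day 14. Of the 16 members lower at day 3 by the unadjusted p and the 11 at day 14, 2 were shared, H2ac1 and Hist1h2af, which is 12.5% of the first and 18.2% of the second. The same overlap over all genes was not counted, so nothing is read from these shares.

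Hist2h3c2 stood at 10.34, 8.19, 9.38 and 9.88 in day 14 controls and at 9.51, 9.24, 8.80 and 8.19 with phenformin. The groups overlapped, control replicate 2 being as low as the lowest treated array, and the change was -0.51 (SE 0.354; limma adjusted p = 0.638). Hist1h2af stood at 9.68, 8.53, 9.43 and 9.60 against 9.17, 9.09, 8.70 and 8.33, again with a single low control. Its change was -0.49 (SE 0.212; limma adjusted p = 0.41). H2ac4 stood at 7.72, 6.33, 7.00 and 7.20 against 7.08, 7.03, 6.95 and 6.37. Control replicate 1 was the highest and control replicate 2 the lowest of the day 14 controls in each of the 6 genes that fell at day 3. Without control replicate 2 the day 14 change was -0.93 for Hist2h3c2, -0.75 for Hist1h2af, -0.62 for Hist1h2ail1, -0.55 for Hist1h2ah, -0.51 for H1f5 and -0.45 for H2ac4, with limma adjusted p between 0.111 and 0.515. The replication-dependent median was then -0.38.

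The members whose day 14 groups did not overlap were H3f3l1, Hist1h2bq and Hist1h2bo, 3 in all, where 3.09% of all genes had every treated array below every control. Hist1h2bq stood at 14.12, 14.42, 14.46 and 14.14 in controls and 13.99, 13.74, 14.05 and 13.90 with phenformin. The gap between the groups was small, and the change of -0.37 had a limma adjusted p of 0.276. H3f3l1, listed as a copy of a variant H3 gene, changed by -0.37 (limma adjusted p = 0.193) and Hist1h2bo by -0.34 (limma adjusted p = 0.241). At day 3 these genes had overlapping groups.

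The difference between the day 14 and day 3 effects was tested in the same fit, and no member passed, as no gene of the 22093 did (0%). At an unadjusted p under 0.05, 7 members were higher and 1 was lower, where 3.12% of all genes were higher and 3.88% lower. The day 14 effect exceeded the day 3 effect by 1.46 for Hist2h3c2 (95% interval 0.40 to 2.52, unadjusted p = 0.0101), and the limma adjusted p was 0.569. For Hist1h2ail1 it exceeded it by 1.16 (95% interval 0.48 to 1.83, limma adjusted p = 0.429). For H1f5 the interval ran from -0.03 to 0.95. Without day 14 control replicate 2 the differences were 1.04 for Hist2h3c2, 0.88 for Hist1h2ail1 and 0.29 for H1f5 (limma adjusted p = 0.672, 0.458 and 0.83). A smaller effect at day 14 was thus not shown for any single gene after adjustment.

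Control hearts of day 14 were compared with those of day 3. No member passed, as no gene did (0%). At an unadjusted p under 0.05, 3 replication-dependent genes were lower and 1 germ cell gene, H2ap, was higher, where 4.39% of all genes were lower and 5.07% higher. The 3 were Hist2h3c2 at -0.91, H2ac4 at -0.74 and Hist1h2ah at -0.68, with limma adjusted p of 0.40, 0.311 and 0.300. Without day 14 control replicate 2 their changes were -0.49, -0.49 and -0.43, with unadjusted p of 0.0944, 0.036 and 0.0275. The replication-dependent median was -0.13, against 0.01 for all genes. Genes of G2 and mitosis were also lower in these day 14 controls (median -0.35, 15 of 25 lower at an unadjusted p under 0.05). So were S phase genes (median -0.18, 11 of 24 lower) and fibroblast markers (median -0.53, 5 of 8 lower). Replicate 2 was the lowest day 14 control by median deviation for G2 and mitosis (-0.47) and S phase genes (-0.16). Values of these lists without it are not given here. The part of these lists in the histone values was not tested. This comparison shares its control arrays with both treatment comparisons.

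Genes of the cell cycle were lower at day 3 as well. Of 25 genes of G2 and mitosis, 14 fell and none rose past the test, where 0.462% of all genes fell, with a median change of -0.79. Without day 3 control replicate 2, 6 genes were called and the median was -0.72; without both arrays that stood apart none was called, 23 were lower at an unadjusted p under 0.05, and the median was -0.76. Mki67, a marker of cycling cells, changed by -2.75 (SE 0.389; limma adjusted p = 0.00674), and Top2a, the topoisomerase that untangles replicated DNA, by -1.89 (SE 0.270; limma adjusted p = 0.0068). Of 24 measured S phase genes, 3 fell and none rose, with a median of -0.28. These were Rrm2, a subunit of ribonucleotide reductase, at -1.35, the thymidine kinase gene Tk1 at -0.56, and Uhrf1, which maintains DNA methylation, at -0.32. Without day 3 control replicate 2 none of the 24 was called, with 12 lower at an unadjusted p under 0.05, and without both arrays none was called and 11 were lower. Mcm5 of the replicative helicase changed by -0.39 (limma adjusted p = 0.255), and Tyms, which makes thymidylate, by -0.27 (limma adjusted p = 0.461). At day 14 none of the genes of either list passed, and 2 of each list were lower at an unadjusted p under 0.05, where 6.96% of all genes were.

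Within the day 14 groups, the replication-dependent histones and the G2 and mitosis genes had the same highest and lowest arrays. The median deviation of the 25 histones from their 16-array means was 0.40, -0.11, 0.11 and 0.28 in replicates 1 to 4, and that of the G2 and mitosis genes was 0.37, -0.47, 0.12 and 0.08. Replicate 1 was highest and replicate 2 lowest by both. With phenformin at day 14 the values were 0.11, -0.10, -0.26 and -0.36 for histones and 0.12, -0.02, -0.03 and -0.28 for G2 and mitosis genes. Replicate 1 was again highest and replicate 4 lowest by both. At day 3 the histone medians were 0.23, 0.44, 0.26 and 0.17 in controls and -0.40, -0.22, -0.42 and -0.25 with phenformin, without overlap. Those of the G2 and mitosis genes were 0.43, 0.59, 0.31 and 0.33 in controls and -0.49, -0.36, -0.38 and -0.41 with phenformin. Replicate 2 was the highest of each day 3 group by both lists, while the lowest arrays differed. Marker medians of endothelial (-0.62), fibroblast (-0.57), smooth muscle and pericyte (-0.48) and macrophage lists (-0.18) were also lowest of their group in day 14 phenformin replicate 4. In day 14 controls none of these marker lists was lowest in replicate 2, the lowest array for the histones. There the endothelial (-0.30) and smooth muscle and pericyte lists (-0.19) were lowest in replicate 4. The fibroblast (-0.35) and macrophage lists (-0.14) were lowest in replicate 3.

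**Figure D4:**
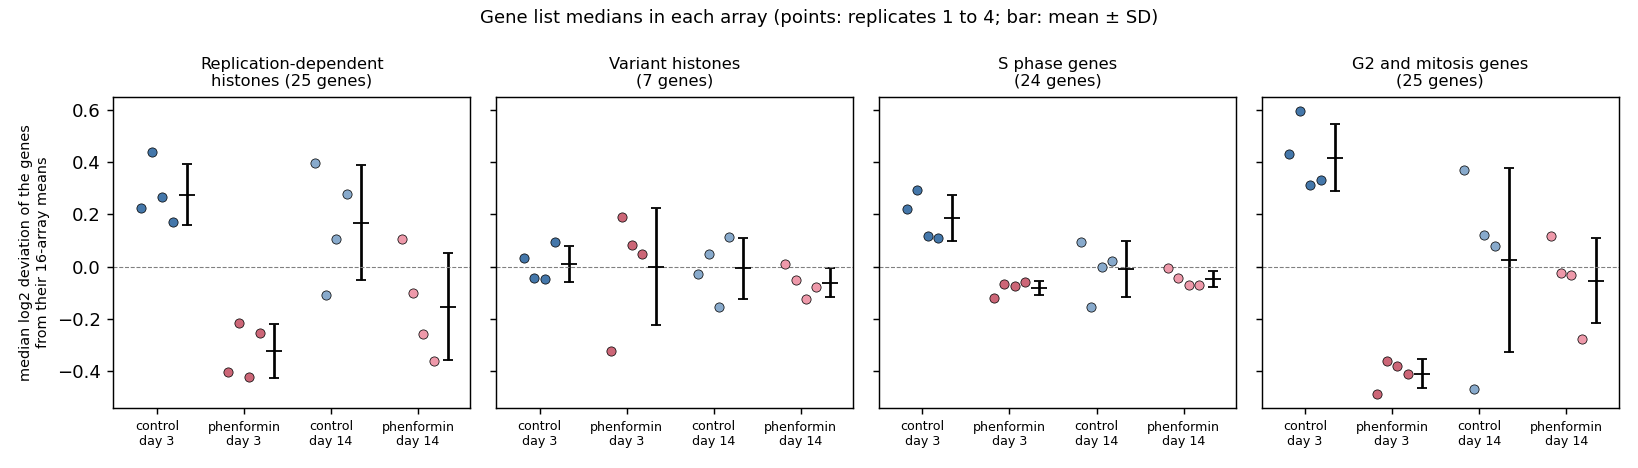
Median log2 deviation of 4 gene lists from their 16-array means (vertical axis) in each array of the 4 groups (horizontal axis); points are replicates 1 to 4 from left to right and bars are the mean ± SD over arrays. Replication-dependent histones, S phase genes and G2 and mitosis genes separate the day 3 groups, variant histones do not, and the day 14 groups overlap in all 4 panels.

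No gene of the lists that make and handle histone mRNA and protein was called. None of 18 genes for histone transcription and mRNA processing passed at day 3, and the median was -0.06. At an unadjusted p under 0.05, 3 were lower, where 5.78% of all genes were. Slbp, which binds the stem-loop of replication-dependent histone mRNA, changed by -0.45 (SE 0.105; limma adjusted p = 0.0733), with all treated arrays below all controls; without both arrays that stood apart it changed by -0.32 (limma adjusted p = 0.671). Npat, the coactivator of histone genes, changed by -0.04 and Casp8ap2, its partner in the histone locus body, by -0.18. None of 25 measured histone chaperones and exchange factors passed; 2 were lower at an unadjusted p under 0.05, where 5.78% of all genes were, and the median was -0.05. Asf1b and Chaf1b, which deliver new histones to replicating DNA, changed by -0.14 and -0.09, and Cenpa, the centromeric H3 variant, by -0.11. Hjurp, the chaperone of Cenpa, had the lowest value of the list at -0.47 (limma adjusted p = 0.166), with groups that did not overlap; it is named here after its value was seen. At day 14 neither list had a call. At an unadjusted p under 0.05, 1 gene of the first list was lower and 2 higher, and 1 of the second was lower. Of all genes, 6.96% were lower and 3.87% higher.

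Markers of some other cell types moved in the same direction at day 3. Of all genes, 49.9% had a day 3 change below 0 and 5.78% were lower at an unadjusted p under 0.05. At day 14 these shares were 57.8% and 6.96%. All 8 fibroblast markers were below 0, with a median of -0.74 and no call, 5 lower at an unadjusted p under 0.05. Their mean log2 value lay between 11.63 and 12.02 in day 3 controls and between 10.91 and 11.58 with phenformin, and no marker was at 0. All 8 macrophage markers were below 0 (median -0.37, no call, 5 lower at an unadjusted p under 0.05), with means of 7.89 to 8.20 in controls and 7.56 to 7.87 with phenformin. All 7 measured red blood cell markers were below 0 (median -0.47, no call, 3 lower at an unadjusted p under 0.05), with means of 7.57 to 7.96 against 7.09 to 7.47. At day 14 all 7 red blood cell markers were again below 0 (median -0.77, no call, 7 lower at an unadjusted p under 0.05), with means of 7.23 to 8.42 in controls and 6.42 to 7.22 with phenformin, as were all 6 platelet markers (median -0.77, no call, 6 lower). Without day 3 control replicate 2 the day 3 medians were -0.67 for fibroblast, -0.35 for macrophage and -0.40 for red blood cell markers, with 4, 3 and 2 lower at an unadjusted p under 0.05; without both arrays they were -0.78, -0.30 and -0.36, with 5, 2 and 1 lower. At day 14 the medians were -0.18 for fibroblast markers, none lower at an unadjusted p under 0.05, and -0.12 for macrophage markers, 1 lower and 1 higher. The platelet median at day 3 was -0.13, and 0.01 without day 3 control replicate 2. The day 3 medians were -0.08 for endothelial, 0.03 for smooth muscle and pericyte, 0.09 for neutrophil, 0.00 for lymphocyte and 0.08 for spermatogenic markers. That of cardiomyocyte markers was 0.00, but several of their values repeat near the top of the scale, Mb holding the same value on 14 of 16 arrays, so this list says little of cardiomyocyte content. Its Ryr2, the calcium release channel, changed by 0.22 (limma adjusted p = 0.128), with groups that did not overlap. The part of these cell types in the histone values was not tested.

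Probe sets that the rule left out give a further reading. Of 10 probe sets annotated to several symbols including a histone, 7 had a day 3 change below 0, with a median of -0.33 and a range of -0.78 to 0.21. None passed over all 68842 probe sets, of which 0.0232% did (16), and 5 were lower at an unadjusted p under 0.05, where 3.14% of all probe sets were. In that fit, which changes both the number of tests and the variance estimate, 1 of the 6 calls remained, that of Hist1h2ail1. A second probe set of Hist1h2ah changed by -0.46, less than the -1.39 of the first, so probe sets of 1 gene disagreed in size. Hist1h4b had 3 probe sets, at -0.49, -0.15 and -0.20, of which the second alone has a gene ID in the annotation, and Hist1h4m had 2, at -0.64 and -0.46.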

How the data were processed

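RNA from 16 rat hearts was hybridised to Affymetrix whole-transcript arrays after labelling of 300 ng. The deposited values are an intensity for each of 68842 probe sets, which the authors made with RMA (a background correction, a quantile normalisation and a summary of probes) per the submitters' processing notes. No source used here tells how the linear scale was reached. The log2 of the deposited intensity was taken here with no further normalisation or filter. The annotation gave 1 symbol to 23446 probe sets, several to 505 and none to 44891; 1 probe set per symbol left 22093 genes. Of the histone members, 44 matched RefSeq by gene ID and 3 by symbol.

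Groups came from the labels. A model with 1 mean per group was fitted with limma 3.58.1 in R 4.3.3 (version 1.17.8 of data.table), with a mean-variance trend, two-sided tests and Benjamini-Hochberg adjustment over all genes. The members and gene lists were chosen with earlier results of these data known. Named were members past the threshold, up to 8 with the largest change at each day whose groups did not overlap, the 3 brightest of each family, replacement variants, and set genes of the other lists; further members are named as neighbours or where a small count holds them. H3f3a, H1f0 and H2az2 were not analysed here. On data simulated for the day 3 comparison over 22093 genes, 88% of changes of 1 log2 unit and 99% of changes of 2 were recovered, with 15 false calls. Replicate numbers did not pair arrays: correlations of same-numbered deviations lay between -0.18 and 0.11. The number of arrays, 4 per group, limits the precision. Alternatives covered filters, normalisation, the variance model, array weights, probe set choice, the replicate block and each left-out array.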

Additional observations from a re-analysis of the deposited data

Results flagged for a closer look

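Of 100 groups of 4 arrays examined over the named histone genes, 4 had an array far from the other arrays of its group by Dixon's ratio, where chance alone flags about 5%. For Hist1h2ah it was phenformin replicate 4 at both days, at a log2 value of 6.36 at day 3 and 6.78 at day 14, each the lowest of its group. For Hist1h4m it was day 3 phenformin replicate 1, the highest of its group at 13.97. For H4c14 it was day 14 phenformin replicate 1, the highest of its group at 8.20.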

How the results depend on the processing

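The 6 calls at day 3 became 1 when all probe sets were tested and 1 at an adjusted p under 0.01. Testing all probe sets changed both the number of tests and the variance estimate, and the share of each in the lost calls was not tested. Leaving out 1 array gave between 1 and 8 calls, and leaving out both of the day 3 control arrays farthest from the centre gave 0, a setting that was chosen after seeing the data. With fewer control arrays there is less power to call any gene, and what else sets these counts was not tested. Dropping genes under the 50th percentile left 4 calls, as 2 of the 6 genes were dimmer. H1f5 also lost its call when array medians were aligned (limma adjusted p = 0.052); in all it lost it in 11 of 28 alternatives, Hist2h3c2 in 6 of 29, Hist1h2af in 4, Hist1h2ah and H2ac4 in 3 each, and Hist1h2ail1 in 1. The other alternatives gave between 5 and 9 calls. The values of the other gene lists without day 3 control arrays, and those of the control comparison without a day 14 control array, were also added after seeing the data.

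The replicate number as a block gave 6 calls at day 3 and none at day 14; the numbers share only a label, and the block changed no count of calls. The replication-dependent median lay between -0.65 and -0.45 at day 3 and between -0.38 and -0.21 at day 14 when 1 array was left out. No member was called at day 14, for the difference between days or between controls under any alternative run. Over 1482 values of named histone genes under alternatives, none reversed a call, and 36 changed sign without a call in either fit. Signals under the 25th percentile limit what 10 members can show.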
